A study of Mus musculus with 26 samples.

Results

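The comparison set 5 libraries of mouse reprogramming cells grown without Chir against 5 libraries of the same kind grown without BrdU, matched by day of the course on days 6, 12, 18, 22 and 30. These are 10 of the 26 libraries of the series, assigned to the courses by their labels, and no library of the full chemical course, of the starting fibroblasts (mouse embryonic fibroblasts, MEF) or of established chemically induced stem cells enters it. The study follows chemical reprogramming, in which small molecules and no added genes turn fibroblasts into pluripotent cells. In the minus Chir course 1 compound, Chir, was left out of the mixture. In the minus BrdU course 1 other compound, BrdU, was left out. By these labels the first course still contained BrdU and the second still contained Chir, and the labels name no other difference in the chemicals, so each difference below holds both omissions at once and they cannot be told apart here. The chemicals' doses, the mouse strain, its genotype and the stage of the embryos are not given in the sources used here. Each course has 1 library per day. Nothing in the labels says that the days came from separate cultures, so the error bars measure how far the difference varied between days, not between cultures.

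Chir is an inhibitor of the kinase GSK3. GSK3 marks beta-catenin for breakdown, so the inhibitor lets beta-catenin build up and switch on Wnt target genes together with the TCF and LEF factors. BrdU is a thymidine analogue that dividing cells build into DNA in place of thymidine. Both are parts of the chemical mixture used to convert fibroblasts, which start as collagen-producing mesenchymal cells and have to give up that programme.

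RNA levels are the deposited normalised values, which share 1 distribution in all libraries (totals from 4158637 to 4162600, median 77, and a common maximum of 21988 shared by 10 genes in each library). The highest values come in coarse shared steps, the read depth behind a value is unknown, and small values that repeat from day to day may stand for no reads. Differences are given as log2(value + 1) in the minus Chir library minus the same in the minus BrdU library of that day, averaged over the 5 days, with the standard error (SE) of the limma fit. A gene is called when its Benjamini-Hochberg adjusted p over all genes tested is below 0.05. Of 16087 genes tested, 5176 were called (32.2%). The minus Chir course was the higher one for 2725 of them (16.9% of genes tested) and the lower one for 2451 (15.2%). The number called fell to 2772 without day 18 and to 3141 without day 22. Of the 5176 called genes 4689 had the same sign on all 5 days, so for a called gene this is the usual case. Among all genes tested 3158 were higher and 3063 lower on all 5 days. The median difference over all genes tested was 0.01; since all libraries were set to 1 distribution, these values cannot show whether RNA levels shifted as a whole. Where a gene is near 0 in 1 course, the size of its log2 difference depends on the added 1: with 5 or 20 added in its place, Psg17 had 4.89 or 3.20 (6.51 with 1), Alb -5.24 or -3.72 (-6.68), Mfap4 -6.49 or -4.96 (-7.81) and Gabrp -4.17 or -2.64 (-6.07), and all 4 stayed called. The core pluripotency factors were at or near 0 in both courses. In the minus Chir course Pou5f1, which encodes Oct4, read 0, 0, 0, 2 and 2 on the 5 days, and in the minus BrdU course 4, 8, 1, 1 and 0. Nanog stayed at or below 6 and Sox2 at or below 9 in all 10 libraries, and none of the 3 genes was called.

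**Figure D1:**
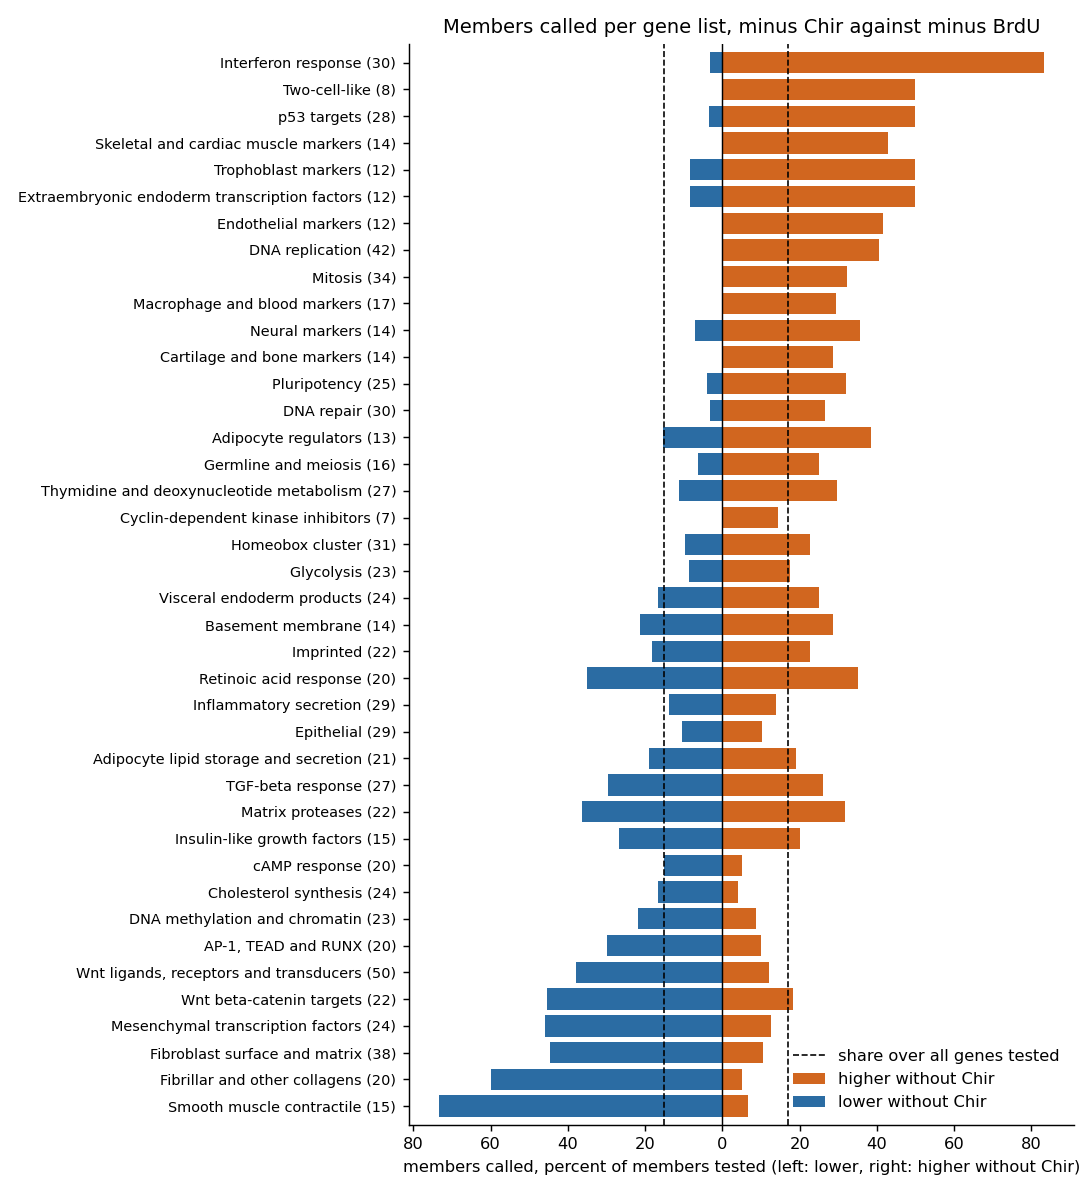
Share of the tested members of each gene list called higher (orange, right) or lower (blue, left) in the minus Chir course, in percent, with the number tested in brackets. Dashed lines mark the shares over all genes tested, 16.9% higher and 15.2% lower. Interferon-stimulated genes lie farthest to the right (25 of 30 higher), and smooth muscle and collagen genes farthest to the left (11 of 15 and 12 of 20 lower). A list whose bars end near the dashed lines does not stand out from the table.

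Several feedback targets of Wnt signalling were lower in the minus Chir course, the course without the GSK3 inhibitor. Of 22 tested target genes, 10 were lower and 4 higher, against 15.2% lower and 16.9% higher among all genes tested, with a median difference of -0.60 against 0.01 for all genes. Axin2 encodes a scaffold of the complex that breaks down beta-catenin and is a standard readout of the pathway. It read 70, 101, 59, 46 and 98 on days 6 to 30 without Chir and 328, 214, 118, 167 and 367 without BrdU (log2 difference -1.60 ± 0.21, adjusted p = 0.00206). The Axin2 values of the courses did not overlap. Axin2 lies on mouse chromosome 11 at 108920349 to 108950783 (mm10).

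Lef1, a transcription factor that partners beta-catenin, read 65, 62, 50, 32 and 26 without Chir and 524, 325, 179, 241 and 79 without BrdU (log2 difference -2.32 ± 0.24, adjusted p = 0.000914). Nkd1, an inducible inhibitor of the pathway, read 254, 132, 78, 62 and 74 against 1580, 1136, 535, 440 and 317 (log2 difference -2.68 ± 0.16, adjusted p = 0.000152). In both genes every day was lower in the minus Chir course, by at least 1.57 on the log2 scale for Lef1 and 2.08 for Nkd1. Apcdd1, a membrane-bound Wnt inhibitor, read 140, 190, 144, 171 and 80 against 2634, 1989, 1212, 1473 and 440 (log2 difference -3.24 ± 0.23, adjusted p = 0.000273). Lgr5, the receptor for R-spondins, read 44, 58, 26, 26 and 40 against 2335, 904, 162, 112 and 392 (log2 difference -3.51 ± 0.48, adjusted p = 0.00229). All minus Chir values of Apcdd1 and Lgr5 lay below all minus BrdU values, although Lgr5 varied widely between days in the minus BrdU course. Znrf3, an enzyme that removes Wnt receptors from the surface, was also lower (log2 difference -1.68 ± 0.24, adjusted p = 0.00282).

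The target list did not move as 1 block. Ccnd1, the cyclin D1 gene, was higher in the minus Chir course, at 798, 3082, 4502, 4502 and 1046 against 537, 620, 1002, 1190 and 88 (log2 difference 2.10 ± 0.37, adjusted p = 0.00564); without the day block its adjusted p was 0.051. The other 3 higher members were Dkk1, Cdx2 and Ascl2. Cdx2 and Ascl2 are also regulators of the trophoblast, the outer layer of the embryo, and stand in that list too. Myc was not called (log2 difference -0.32 ± 0.14, adjusted p = 0.113).

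**Figure D2:**
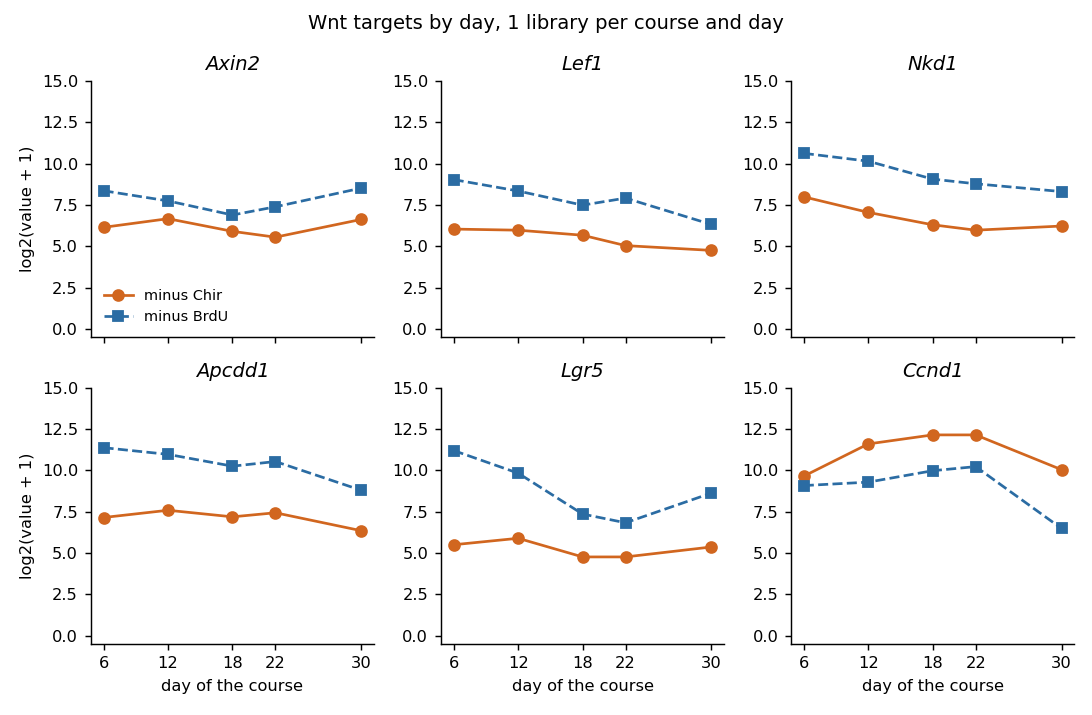
Levels of 6 Wnt target genes by day, as log2(value + 1), with 1 library per point (orange circles, minus Chir; blue squares, minus BrdU). Axin2, Lef1, Nkd1, Apcdd1 and Lgr5 are lower without Chir on every day, and Ccnd1 is higher on every day.

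Genes of the pathway's own parts were lower more often than higher. Of 50 tested ligands, receptors, secreted antagonists and transducers, 19 were lower, 6 higher and 25 not called in the minus Chir course (median -0.36; 15.2% lower among all genes tested); leaving out day 6, 12, 18 or 22 reduced the higher count to between 2 and 3. Among the ligands Wnt2 read 30, 22, 24, 10 and 26 against 239, 253, 123, 93 and 112 (log2 difference -2.78 ± 0.24, adjusted p = 0.000537), and Wnt4 was lower too (log2 difference -1.71 ± 0.19, adjusted p = 0.00115). Wnt11 was the exception among the called ligands (log2 difference 2.41 ± 0.43, adjusted p = 0.00625). Ror2, a receptor for Wnt5a, was lower (log2 difference -1.47 ± 0.16, adjusted p = 0.00111). Dkk2, a secreted antagonist that binds the LRP coreceptors, had the largest difference of the list, with 41, 30, 24, 41 and 34 against 980, 1647, 1101, 1164 and 132 (log2 difference -4.49 ± 0.51, adjusted p = 0.00123).

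Interferon-stimulated genes were higher in the minus Chir course almost as a whole. These genes are switched on when interferons, released after viral infection or when cells sense nucleic acids in the wrong place, activate a complex of transcription factors that binds a short promoter sequence, the interferon-stimulated response element. Of 30 tested members 25 were higher, 1 was lower and 4 were not called, against 16.9% higher among all genes tested, and the list median was 1.61. The count of higher members stayed between 21 and 25 when any 1 day was left out.

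The promoters of 3 of these genes are shown because they carry the core of that element, GAAANNGAAA, in capitals; the strand is that of the gene, the sequence runs from the distal end to the last base before the annotated transcript, and sequences are from RefSeq (GRCm38.p6). Rsad2 has chr12:26456453-26456702 on the minus strand, Isg15 chr4:156200819-156201068 on the minus strand and Ifit1 chr19:34640639-34640870 on the plus strand.
Rsad2: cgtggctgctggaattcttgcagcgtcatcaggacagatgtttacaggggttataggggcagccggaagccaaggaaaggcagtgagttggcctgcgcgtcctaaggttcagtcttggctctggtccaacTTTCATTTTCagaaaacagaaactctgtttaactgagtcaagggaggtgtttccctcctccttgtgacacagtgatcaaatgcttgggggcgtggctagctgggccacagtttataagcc
Isg15: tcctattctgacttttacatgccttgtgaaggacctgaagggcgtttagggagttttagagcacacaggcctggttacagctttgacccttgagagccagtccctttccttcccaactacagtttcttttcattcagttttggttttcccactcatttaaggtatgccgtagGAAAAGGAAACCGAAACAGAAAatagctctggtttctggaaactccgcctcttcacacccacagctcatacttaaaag
Ifit1: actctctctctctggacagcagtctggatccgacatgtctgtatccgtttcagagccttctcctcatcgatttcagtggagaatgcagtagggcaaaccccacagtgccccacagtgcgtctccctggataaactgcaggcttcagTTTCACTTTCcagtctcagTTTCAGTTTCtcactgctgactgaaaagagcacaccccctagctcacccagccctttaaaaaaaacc
The core was searched on both strands of the 250 bases before each start, and adjoining matches may overlap. The printed Ifit1 sequence has 232 bases because it stops short of that start, where the annotated gene begins (34640871). Isg15 held 3 matches that overlap into 1 run, Ifit1 held 2 and Rsad2 held 1. Of the 25 tested members of the list that have a promoter in the RefSeq table, 10 held the core, among them 9 of the 21 that were higher in the minus Chir course. Over all genes of the table the share with the core in at least 1 promoter was 3.46% (936 of 27025), and over all promoters it was 2.98% (978 of 32851). A match is a description of the letters and does not show binding.

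Rsad2, which encodes the antiviral enzyme viperin, read 175, 270, 270, 264 and 76 without Chir and 16, 28, 28, 11 and 7 without BrdU (log2 difference 3.51 ± 0.23, adjusted p = 0.0002). Isg15, a ubiquitin-like protein attached to other proteins during the response, read 970, 954, 798, 735 and 332 against 67, 160, 116, 69 and 104 (log2 difference 2.85 ± 0.29, adjusted p = 0.000872). Ifit1, which binds foreign RNA ends, read 928, 874, 600, 556 and 244 against 42, 134, 146, 62 and 107 (log2 difference 2.70 ± 0.42, adjusted p = 0.00362). In each of the 3 genes the lowest minus Chir library lay above the highest minus BrdU library. The differences of Isg15 and Ifit1 were smallest on day 30, at 1.67 and 1.18.

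Bst2, the membrane protein tetherin that holds back budding viruses, read 2902, 2902, 2902, 2328 and 2032 against 970, 1069, 688, 506 and 543 (log2 difference 1.84 ± 0.15, adjusted p = 0.000392). Antigen presentation genes were among the higher members. B2m, the light chain of class I major histocompatibility molecules, read 6084, 6869, 6869, 6869 and 11331 against 1227, 1614, 1684, 1368 and 4508 (log2 difference 2.02 ± 0.18, adjusted p = 0.000559), and the heavy chain H2-K1 read 1368, 1535, 1650, 1555 and 1470 against 497, 628, 665, 712 and 628 (log2 difference 1.28 ± 0.10, adjusted p = 0.000416). H2-K1 shares much of its sequence with other class I genes, and the counting could have split reads among them.

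The single lower member was Ifit2, at 38, 30, 18, 11 and 22 against 53, 54, 64, 28 and 148 (log2 difference -1.41 ± 0.34, adjusted p = 0.0188); its call was lost without day 18 and 22 (adjusted p between 0.0533 and 0.0754). Irf1, Oas2, Oasl1 and Gbp2 were not called. Macrophage and blood cell markers moved beside this list: of 17 tested, 5 were higher and none was lower (median 1.02), against 16.9% and 15.2% among all genes tested. Their summed level was 1077 to 1759 in the minus Chir libraries and 297 to 760 in the minus BrdU libraries. The defining blood marker Ptprc read 22, 0, 10, 0 and 0 and 0, 0, 0, 14 and 0, and Adgre1 read 12, 5, 0, 3 and 4 and 10, 7, 2, 0 and 3, in the same order. The part of such cells in the interferon result was not tested. In bulk RNA a change in the number of cells of a kind and a change in RNA per cell cannot be told apart, here or in any list below.

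**Figure D3:**
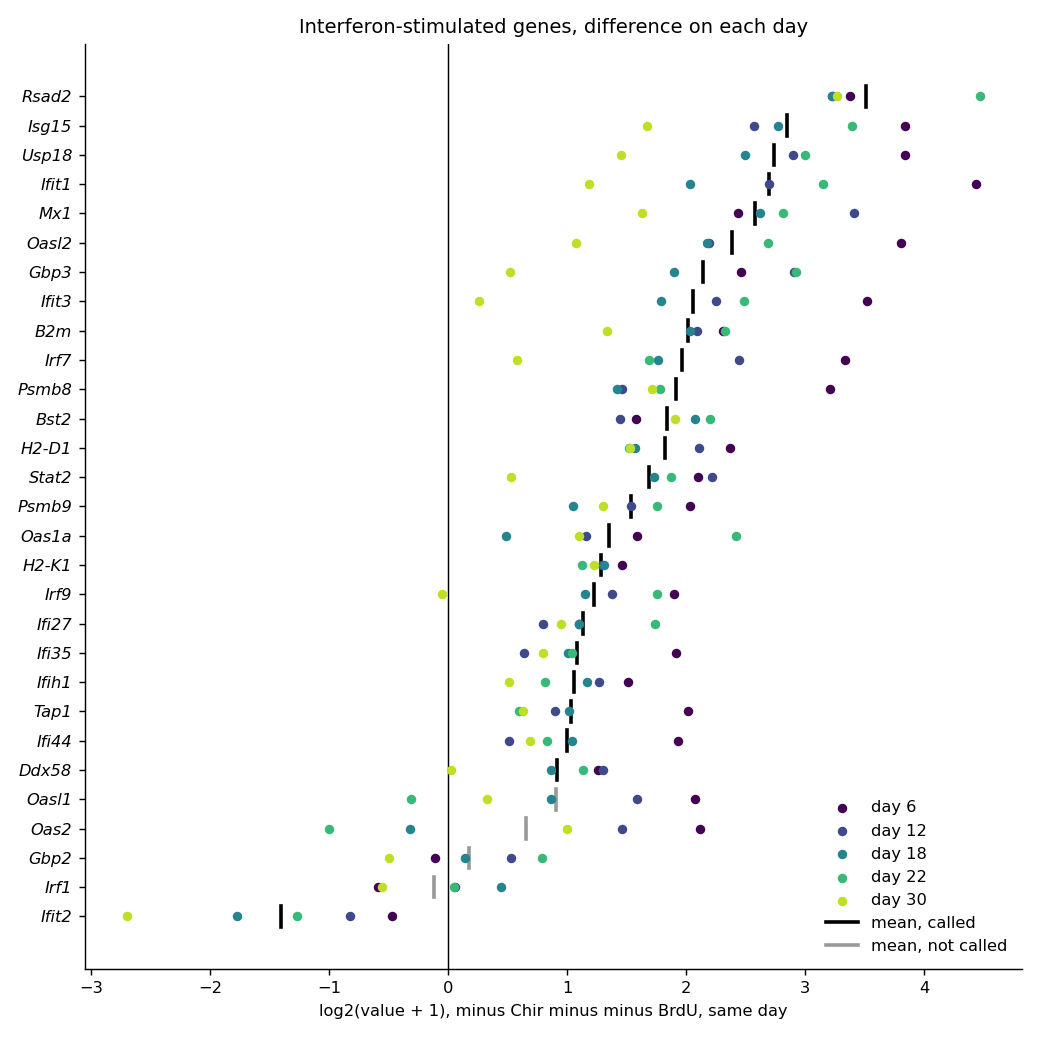
Difference of 29 interferon-stimulated genes on each day, as log2(value + 1) in the minus Chir library minus that in the minus BrdU library; points are days, and bars are means, black where called. Of the 29 genes 24 have a called mean above 0, Rsad2 has the largest at 3.51, and Ifit2 is called below 0.

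Of 12 tested trophoblast markers, genes of the placenta and its precursor cells, 6 were higher, 1 was lower and 5 were not called in the minus Chir course (median 2.09; 16.9% higher among all genes tested). Peg10, an imprinted gene needed for the placenta, was read at high levels in both courses, at 8314, 6084, 2330, 2104 and 982 without Chir and 982, 1368, 2215, 3420 and 166 without BrdU, and was not called (log2 difference 1.43 ± 0.56, adjusted p = 0.0877). Gata2 and Gata3, transcription factors of trophoblast cells, read 337, 380, 419, 398 and 86 and 254, 227, 262, 245 and 144 without Chir, against 72, 68, 73, 128 and 10 and 20, 34, 58, 60 and 16 without BrdU. The differences were 2.36 ± 0.20 (adjusted p = 0.00047) and 2.71 ± 0.25 (adjusted p = 0.000627), and no minus Chir value of Gata3 fell within the minus BrdU range. Psg17, a secreted glycoprotein of the placenta, read 140, 246, 245, 249 and 69 against 1, 1, 0, 2 and 1 (log2 difference 6.51 ± 0.41, adjusted p = 0.000169). Tfap2c of the same list leaned the other way, at 8, 16, 32, 26 and 5 against 56, 96, 66, 83 and 1. It was lower on 4 of 5 days and not called (log2 difference -1.25 ± 0.61, adjusted p = 0.153). The lower member was Krt7, a keratin that is also in the epithelial list and is described with it.

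The genes of the prolactin-related hormones of the placenta lie on mouse chromosome 13, where the 24 members in the table are spread between 12790816 and 28151611 (mm10). This family was picked by symbol after its values had been seen, and some members are close copies of each other, such as those of the Prl2c and Prl3d groups, so reads may be split among those and their single values are uncertain. Of the 24, 12 were higher in the minus Chir course, none was lower and 12 were not called (median 2.21). Among all genes tested 16.9% were higher and 15.2% lower. Prl3d2, a placental lactogen, read 130, 130, 232, 242 and 130 without Chir and was listed at 0 in each minus BrdU library (adjusted p = 5.99e-05). Prl8a6 read 75, 91, 138, 148 and 84 against 0, 0, 0, 12 and 0, and Prl2a1 read 135, 156, 267, 390 and 150 against 15, 14, 36, 38 and 14. Not all of the family followed: Prl2c2 read 228, 710, 2286, 3242 and 378 against 2286, 6884, 8336, 6884 and 134 and was not called, and in both courses it was higher on days 18 and 22 than on day 6 or 30.

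Genes tied to the placenta stood among the 12 largest called differences in this direction (higher on all 5 days, with a mean of at least 50 without Chir), together with genes of other tissues. The others included Gm8334 (86, 280, 328, 348 and 318 against 0, 0, 1, 0 and 0, adjusted p = 8.62e-05), the glutamate receptor Grm3 (97, 73, 83, 76 and 86, listed at 0 in the minus BrdU libraries), the milk casein Csn1s1 (60, 74, 84, 78 and 46, listed at 0) and Hsd3b6, an enzyme of steroid synthesis (88, 199, 402, 497 and 48 against 0, 6, 6, 6 and 0). These genes were at or near 0 in every minus BrdU library. Mcpt4, a mast cell protease, read 53, 64, 117, 136 and 30 against 0, 0, 0, 1 and 0, and the lipase Pnliprp2 read 159, 168, 246, 270 and 100 against 0, 3, 11, 2 and 0.

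**Figure D4:**
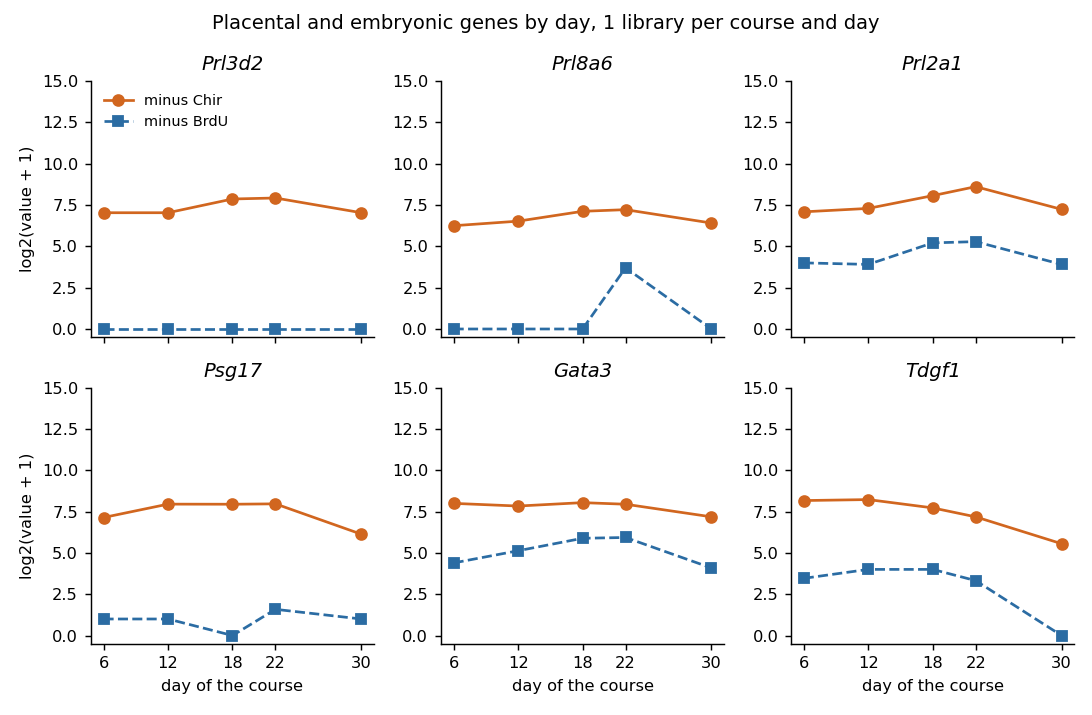
Levels of 6 genes of placenta and early embryo by day, as log2(value + 1), 1 library per point (orange circles, minus Chir; blue squares, minus BrdU). Prl3d2 is at 0 on all 5 days without BrdU, and Psg17, Gata3 and Tdgf1 are higher without Chir on every day.

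Regulators of extraembryonic endoderm were more often higher than lower in the minus Chir course. This lineage forms the yolk sac and is passed through during chemical reprogramming. Of 12 tested transcription factors 6 were higher and 1 was lower (median 2.04), against 16.9% higher among all genes tested. Hhex read 52, 74, 88, 93 and 42 against 12, 6, 11, 8 and 7 (log2 difference 2.83 ± 0.29, adjusted p = 0.00085), and Sox7 read 192, 202, 216, 172 and 47 against 12, 34, 40, 52 and 13 (log2 difference 2.46 ± 0.33, adjusted p = 0.00204). The minus Chir values of both genes were higher on every day. Gata4 was low in both courses, at 12, 15, 24, 11 and 106 against 2, 6, 6, 4 and 10 (log2 difference 1.94 ± 0.38, adjusted p = 0.00914), with its highest value on day 30 of the minus Chir course. Sox17 read 22, 12, 52, 46 and 150 against 18, 7, 8, 6 and 3 (adjusted p = 0.0402), with the call lost without day 18, 22 and 30 (adjusted p between 0.0626 and 0.119). Gata6, expressed in both courses, was not called (log2 difference 0.39 ± 0.13, adjusted p = 0.052). The lower member was Foxa1, at 2, 2, 1, 2 and 8 against 7, 28, 102, 206 and 82 (log2 difference -3.94 ± 0.69, adjusted p = 0.00583).

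Secreted and uptake proteins of visceral endoderm did not follow 1 direction, with 6 higher and 4 lower of 24 (3 and 2 without day 22), near the shares over all genes tested (16.9% and 15.2%). The uptake receptor Lrp2, which encodes megalin, read 18, 30, 34, 26 and 136 against 10, 6, 3, 6 and 28 (log2 difference 2.05 ± 0.36, adjusted p = 0.0058). Albumin went the other way: Alb read 0, 2, 0, 3 and 7 against 38, 75, 630, 653 and 884 (log2 difference -6.68 ± 0.64, adjusted p = 0.000671), one of the largest differences of the table. Rbp4, the carrier of retinol in plasma, was also lower (log2 difference -1.47 ± 0.27, adjusted p = 0.00725). Among basement membrane genes Lama1, a laminin chain, was higher on 4 of 5 days (log2 difference 1.63 ± 0.33, adjusted p = 0.00966), with an adjusted p of 0.111 without the day block. Col4a2 was higher on all 5 days (log2 difference 0.93 ± 0.15, adjusted p = 0.00461), and the linker Nid1 was lower (log2 difference -1.82 ± 0.43, adjusted p = 0.0182; call lost without day 18, 22 and 30 (adjusted p between 0.0511 and 0.0745)).

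Pluripotency-associated genes were partly higher without Chir, with 8 higher and 1 lower of 25 tested (median 0.25; 5 higher without day 18). Among all genes tested 16.9% were higher and 15.2% lower. The 25 include the core factors Pou5f1, Nanog and Sox2, none of which was called. The lower member was Klf5, which is also in the list of fat cell regulators and is described with it. Tdgf1, the Nodal coreceptor Cripto, read 286, 298, 210, 144 and 46 against 10, 15, 15, 9 and 0 (log2 difference 4.41 ± 0.31, adjusted p = 0.000224), and no values overlapped. Trim71, an RNA-binding regulator of early embryos, read 80, 116, 101, 81 and 54 against 16, 28, 21, 18 and 3 (log2 difference 2.47 ± 0.30, adjusted p = 0.00156). Lin28a, which blocks maturation of let-7 microRNAs, read 2, 8, 13, 6 and 24 without Chir and was listed at 0 in every minus BrdU library (adjusted p = 0.00458). Sall4, also an early embryonic factor, was not called (log2 difference 1.52 ± 0.49, adjusted p = 0.0507).

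Of 8 tested genes of the 2-cell embryo 4 were higher and none was lower, against 16.9% higher among all genes tested. The Zscan4 genes of this list did not follow. Zscan4c was at 0 in every library, and Zscan4b and Zscan4d were too low to test. Zscan4f read 6, 4, 4, 1 and 1 against 0, 0, 1, 10 and 0 and was not called (adjusted p = 0.357). Zfp352 and Eif1a were not called either (log2 difference -0.35 ± 0.40 and -0.24 ± 0.12). Usp17la, a deubiquitinase of a multicopy family whose copies may share reads, read 46, 72, 74, 53 and 16 against 3, 5, 2, 6 and 0 (log2 difference 3.77 ± 0.33, adjusted p = 0.000531). Gm5662 read 47, 93, 100, 90 and 70 against 9, 10, 8, 36 and 9 (log2 difference 2.59 ± 0.34, adjusted p = 0.00197). Of 16 germline genes 4 were higher and 1 was lower, against 16.9% and 15.2% among all genes tested. Dazl, a germ cell RNA-binding protein, read 8, 38, 24, 7 and 52 against 0, 14, 0, 0 and 13 (log2 difference 2.82 ± 0.51, adjusted p = 0.0065). Rhox5, an X-linked homeobox gene of the placenta and germ line, read 50, 108, 212, 197 and 79 against 20, 74, 66, 41 and 24 (log2 difference 1.48 ± 0.25, adjusted p = 0.00522).

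Retinoid genes divided evenly, with 7 higher and 7 lower of 20 tested, against 16.9% and 15.2% among all genes tested. Both sides held large differences. Cyp26a1, the enzyme that breaks down retinoic acid and is itself a retinoic acid target, read 884, 1490, 2163, 1190 and 436 without Chir and 53, 12, 38, 28 and 6 without BrdU (log2 difference 5.60 ± 0.36, adjusted p = 0.000169). Its lowest minus Chir value was above its highest minus BrdU value. Crabp1, the intracellular retinoic acid carrier, was lower on every day, at 314, 229, 250, 216 and 52 against 6875, 6875, 8324, 6875 and 1259 (log2 difference -4.79 ± 0.13, adjusted p = 1.16e-05). The minus BrdU values of Crabp1 all lay above the highest minus Chir value.

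The Cyp26a1 promoter is shown because it holds the known retinoic acid response element of this gene, in capitals, at chr19:37697558-37697797 on the plus strand (RefSeq, GRCm38.p6).
Cyp26a1: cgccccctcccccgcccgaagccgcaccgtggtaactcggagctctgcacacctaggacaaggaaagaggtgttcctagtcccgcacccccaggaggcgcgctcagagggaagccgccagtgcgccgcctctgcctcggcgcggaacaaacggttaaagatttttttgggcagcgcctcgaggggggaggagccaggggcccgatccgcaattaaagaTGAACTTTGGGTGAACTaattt
The capitals mark a direct repeat with a 5-base gap, found on the opposite strand from 32 to 16 bases before the RefSeq start. The printed sequence has 240 bases and stops short of that start, where the annotated gene begins (37697798). Fewer bases therefore follow the capitals than the stated distance. The same search on both strands of 250 bases found it in 11 of 32851 promoters (0.0335%). The data here do not show which factors occupied it.

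Among the enzymes that make retinoic acid, Aldh1a3 read 270, 864, 920, 1072 and 44 against 14, 38, 93, 107 and 14 (log2 difference 3.37 ± 0.39, adjusted p = 0.00128). Cyp26c1, a second breakdown enzyme, was low and higher without Chir (log2 difference 3.38 ± 0.41, adjusted p = 0.00147). Stra6, the retinol uptake receptor, was lower at 229, 306, 384, 361 and 68 against 1982, 1340, 1255, 1490 and 177 (log2 difference -2.07 ± 0.24, adjusted p = 0.00122), and so was the nuclear receptor Nr2f1 (log2 difference -1.90 ± 0.24, adjusted p = 0.00169). Aldh1a3, Cyp26a1 and Cyp26c1 were thus higher in the libraries in which Crabp1 and Stra6 were lower. Other genes of the list differed from these. Cyp26b1, also a breakdown enzyme, read 2280, 2762, 2215, 1756 and 262 against 2167, 2280, 3846, 3633 and 1016. It was not called (log2 difference -0.69 ± 0.32, adjusted p = 0.135). The retinoic acid receptor gene Rarb was lower on all 5 days (log2 difference -0.63 ± 0.12, adjusted p = 0.0084).

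Ligands, inhibitors and targets of the TGF-beta family moved both ways, with 7 higher and 8 lower of 27 tested (5 lower without day 18). Among all genes tested 16.9% were higher and 15.2% lower. The gene with the smallest p of all lists was Inhbb, which encodes the activin beta-B chain: it read 33, 69, 70, 70 and 60 against 886, 1876, 1756, 2215 and 1409 (log2 difference -4.71 ± 0.11, adjusted p = 7.62e-06). Tgfb2, a TGF-beta ligand, was lower (log2 difference -1.87 ± 0.24, adjusted p = 0.0018). The inhibitory SMADs were higher, with Smad6 at 1712, 1915, 910, 884 and 356 against 134, 173, 136, 147 and 100 (log2 difference 2.85 ± 0.26, adjusted p = 0.000583) and Smad7 at 1.49 ± 0.24 (adjusted p = 0.00441). The BMP target Id1 read 1985, 1408, 1714, 1441 and 550 against 760, 912, 1060, 912 and 257 (log2 difference 0.89 ± 0.15, adjusted p = 0.00464), and Id4 was higher as well (log2 difference 1.84 ± 0.17, adjusted p = 0.000606). Without the day block Id1 and Id4 were not called (adjusted p = 0.139 and 0.069), and the higher count was 4 in place of 7.

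Insulin-like growth factor genes included 2 of the larger differences. Igf1, the growth factor, read 295, 105, 67, 66 and 118 without Chir and 3101, 4980, 3854, 2286 and 4516 without BrdU (log2 difference -5.02 ± 0.33, adjusted p = 0.000185). Igfbp2, a binding protein, went the other way at 576, 1050, 1370, 1370 and 3850 against 103, 46, 68, 114 and 216 (log2 difference 3.80 ± 0.29, adjusted p = 0.000322). Neither gene's values overlapped between courses. Of 15 tested genes of the list 3 were higher and 4 lower, against 16.9% and 15.2% among all genes tested. Without day 18 the counts of the list were 1 and 2.

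Many fibroblast matrix and contractile genes were lower in the minus Chir course. Of 20 tested collagens other than type IV, 12 were lower and 1 was higher (median -1.97), against 15.2% lower among all genes tested, and the lower count was 12 or 13 whichever day was left out. Collagen VI alpha 3, a beaded-filament collagen, had among the smallest p of the table: Col6a3 read 42, 30, 19, 16 and 13 against 903, 974, 816, 778 and 778 (log2 difference -5.21 ± 0.21, adjusted p = 5.99e-05). Col3a1, a fibril-forming collagen, read 11346, 1994, 685, 524 and 2918 against 21988, 21988, 11346, 8336 and 21988 (log2 difference -3.07 ± 0.44, adjusted p = 0.00274), and 3 of its minus BrdU values lay at the common maximum, so the difference may be understated. Col1a1 was lower on all 5 days (log2 difference -1.80 ± 0.31, adjusted p = 0.00536). The higher member was Col14a1, a collagen that binds fibril surfaces, at 1244, 554, 304, 310 and 676 against 76, 54, 52, 46 and 123 (log2 difference 3.01 ± 0.24, adjusted p = 0.000406).

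Of 38 tested surface and matrix genes of fibroblasts 17 were lower and 4 higher (median -1.06), against 15.2% and 16.9% among all genes tested. Lumican, a proteoglycan of collagen fibrils, read 500, 280, 202, 146 and 235 against 4518, 5544, 4518, 2918 and 4226 for Lum (log2 difference -4.09 ± 0.20, adjusted p = 9.47e-05). Mfap4, a protein of elastic fibres, had the largest difference in this direction among called genes that were lower on all 5 days and averaged at least 50 without BrdU, at 4, 1, 0, 1 and 15 against 594, 678, 398, 265 and 4208 (log2 difference -7.81 ± 0.31, adjusted p = 5.99e-05). The mesenchymal cadherin Cdh11 read 1872, 1136, 650, 572 and 668 against 21988, 8303, 8303, 8303 and 11324 (log2 difference -3.61 ± 0.19, adjusted p = 9.83e-05). Every minus Chir value of these 3 genes lay below every minus BrdU value.

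The receptor Pdgfra was lower on all 5 days (log2 difference -2.16 ± 0.27, adjusted p = 0.00163), and so was Pdgfrb (log2 difference -3.29 ± 0.35, adjusted p = 0.000964). Thy1, a surface marker of fibroblasts, read 660, 893, 686, 510 and 385 against 907, 1441, 1256, 1408 and 28 and was not called over the 5 days (log2 difference 0.05 ± 0.70, adjusted p = 0.965). It was lower without Chir on 4 days and higher on day 30, and without day 30 it was called lower (log2 difference -0.87 ± 0.18, adjusted p = 0.016). Cdh2 and Fmod, which encode N-cadherin and the matrix protein fibromodulin, were higher (1.04 ± 0.14 and 2.86 ± 0.58, adjusted p = 0.00218 and 0.00988).

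Smooth muscle contractile genes were lower in 11 of 15 tested and higher in 1 (median -1.51), against 15.2% and 16.9% among all genes tested. Myosin genes were among them: Myh11 read 10, 4, 6, 6 and 7 against 39, 34, 24, 32 and 46 (log2 difference -2.26 ± 0.28, adjusted p = 0.00153) and Myl9 157, 50, 22, 16 and 72 against 361, 107, 123, 110 and 446 (log2 difference -2.01 ± 0.29, adjusted p = 0.00291). Acta2, smooth muscle actin, was not called (log2 difference -0.65 ± 0.21, adjusted p = 0.0542). The higher member was Des, the intermediate filament desmin, at 479, 406, 356, 312 and 360 against 41, 27, 21, 36 and 50 (log2 difference 3.46 ± 0.21, adjusted p = 0.000153). Desmin also marks skeletal and heart muscle.

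Among 24 tested transcription factors of mesenchymal cells 11 were lower and 3 higher (median -0.72), against 15.2% and 16.9% among all genes tested. Meis2, a homeobox factor, read 838, 742, 564, 522 and 266 against 2220, 1994, 1392, 1374 and 698 (log2 difference -1.38 ± 0.10, adjusted p = 0.000229). Twist2, an inducer of the mesenchymal state, read 338, 241, 290, 296 and 130 against 776, 924, 855, 833 and 277 (log2 difference -1.45 ± 0.14, adjusted p = 0.000808). Prrx1, a limb and fibroblast homeobox factor, had the largest difference of this list (log2 difference -2.91 ± 0.44, adjusted p = 0.00329). Msx1 was lower and its relative Msx2 higher, at -2.09 ± 0.22 and 2.25 ± 0.22 (adjusted p = 0.000983 and 0.000798).

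Enzymes that act on matrix went both ways, with 7 higher and 8 lower of 22, against 16.9% and 15.2% among all genes tested. Mmp14, the membrane metalloprotease that activates Mmp2, read 481, 416, 308, 246 and 371 against 1794, 1714, 1918, 1918 and 4506 (log2 difference -2.63 ± 0.25, adjusted p = 0.000645), and Mmp2 was lower too (log2 difference -2.05 ± 0.24, adjusted p = 0.0013). Their inhibitor Timp1 was higher (log2 difference 1.49 ± 0.14, adjusted p = 0.000585), as were Plau and its receptor Plaur of the plasminogen system (1.44 ± 0.19 and 1.67 ± 0.23). The lysophospholipase Enpp2, known as autotaxin, was lower at 377, 242, 152, 157 and 204 against 11324, 11324, 6860, 6078 and 4501 (log2 difference -5.13 ± 0.18, adjusted p = 3.8e-05).

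Part of the genes of DNA replication and mitosis were higher in the minus Chir course. Of 42 tested replication genes 17 were higher, none was lower and 25 were not called (median 0.51), against 16.9% higher among all genes tested, and the count was 10 without day 18 and 11 without day 22. Rpa1, the large subunit of the protein that coats single-stranded DNA, read 2762, 2550, 1875, 1514 and 1288 against 522, 436, 462, 342 and 326 (log2 difference 2.22 ± 0.13, adjusted p = 0.000125), and Rpa2 was higher too (log2 difference 1.58 ± 0.20, adjusted p = 0.00168). Mcm5, a subunit of the replicative helicase, read 216, 169, 166, 152 and 90 against 134, 82, 62, 38 and 24 (log2 difference 1.39 ± 0.22, adjusted p = 0.00402). The values of Rpa1 did not overlap between courses, while those of Mcm5 did.

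Of 34 tested mitosis genes 11 were higher, none was lower and 23 were not called (median 0.59). Among all genes tested 16.9% were higher and 15.2% lower. Without day 18 the higher count was 7, and without the day block it was 2. In both courses these genes were highest on day 6 and lowest on day 30. Top2a, the topoisomerase that untangles chromosomes, read 1171, 600, 361, 216 and 104 against 413, 172, 200, 154 and 26 (log2 difference 1.32 ± 0.23, adjusted p = 0.00586). Mki67, the marker of cycling cells, read 635, 421, 186, 120 and 28 against 308, 112, 110, 105 and 13 (log2 difference 0.99 ± 0.23, adjusted p = 0.0181; call lost without day 6 and 18 (adjusted p between 0.0518 and 0.0555)). Without the day block, in a fit that sets the differences against the spread over days, Top2a and Mki67 had adjusted p values of 0.211 and 0.442.

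Genes of thymidine and other deoxynucleotides were higher in 8 and lower in 3 of 27 tested, against 16.9% and 15.2% among all genes tested. Tk1, the kinase that salvages thymidine and also acts on its analogues, read 102, 69, 54, 48 and 28 against 68, 26, 26, 18 and 5 (log2 difference 1.32 ± 0.28, adjusted p = 0.0111), with an adjusted p of 0.104 without the day block. Slc29a1, a transporter that carries nucleosides into cells, read 84, 79, 68, 70 and 54 against 10, 22, 30, 24 and 11 (log2 difference 1.92 ± 0.29, adjusted p = 0.00337). Its relative Slc29a2 was low and went the other way, at 2, 2, 0, 0 and 4 against 8, 13, 6, 3 and 7 (log2 difference -1.86 ± 0.43, adjusted p = 0.0164). That call was lost without day 12, 18 or 22 (adjusted p between 0.0515 and 0.0624). Samhd1, an enzyme that breaks down deoxynucleotides and is also induced by interferon, read 665, 462, 325, 297 and 291 against 148, 150, 136, 139 and 197 (log2 difference 1.34 ± 0.22, adjusted p = 0.00475). Cad, the first enzyme of pyrimidine synthesis, was lower on every day (log2 difference -1.34 ± 0.12, adjusted p = 0.000497).

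Targets of p53 were higher in 14 of 28 tested and lower in 1 (median 0.65; 16.9% higher among all genes tested); without day 18 the higher count was 8. Gdf15, a secreted stress hormone, read 380, 804, 849, 1388 and 712 against 47, 141, 178, 226 and 130 (log2 difference 2.56 ± 0.13, adjusted p = 9.77e-05), and all its minus Chir values were above all its minus BrdU values. Fas, a death receptor, read 192, 212, 172, 170 and 442 against 96, 92, 80, 72 and 150 (log2 difference 1.21 ± 0.13, adjusted p = 0.001). Ccng1 was higher on all 5 days (log2 difference 1.32 ± 0.22, adjusted p = 0.0049). Cdkn1a, the cyclin-dependent kinase inhibitor p21, was not called (log2 difference 0.16 ± 0.21, adjusted p = 0.594), and the senescence gene Cdkn2a was not called either (log2 difference 0.08 ± 0.21, adjusted p = 0.788). The lower member was Zmat3 (log2 difference -0.58 ± 0.12, adjusted p = 0.0097).

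Of 30 tested DNA repair genes 8 were higher and 1 was lower, against 16.9% and 15.2% among all genes tested. The higher count was 5 without day 12, 18 or 22. Brca1 and its partner Bard1, which act in repair of double-strand breaks, were higher by 1.66 ± 0.21 and 1.62 ± 0.17 (adjusted p = 0.00182 and 0.000886). Both genes were higher on every day in the minus Chir course.

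Fat cell regulators were higher in 5 and lower in 2 of 13 tested (median -0.10). Genes of lipid storage were higher in 4 and lower in 4 of 21, near the shares over all genes tested (16.9% and 15.2%). Without day 18 the higher counts were 2 and 1. The lower regulators were Prdm16 and Klf5 (log2 difference -1.55 ± 0.36 and -1.16 ± 0.28, adjusted p = 0.0168 and 0.0189). Neither was called without day 18 (adjusted p = 0.0675 and 0.0573). Pparg, the master regulator of fat cells, read 626, 560, 532, 633 and 262 against 178, 231, 246, 356 and 86 (log2 difference 1.32 ± 0.16, adjusted p = 0.00149). Ebf2, a factor of fat cell precursors, read 36, 30, 24, 24 and 12 against 10, 1, 0, 4 and 0 (log2 difference 3.27 ± 0.49, adjusted p = 0.00323). Fabp4, a fatty acid carrier and Pparg target, read 468, 588, 1094, 1182 and 710 against 32, 352, 1348, 1994 and 65 and was not called (log2 difference 1.39 ± 0.71, adjusted p = 0.17). Its values crossed: they were higher without Chir on days 6, 12 and 30 and lower on days 18 and 22.

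The lipase Pnpla2 was higher (log2 difference 0.95 ± 0.13, adjusted p = 0.0024), while Acaca, which makes the building block of fatty acids, was lower at 472, 350, 446, 384 and 262 against 1195, 1182, 909, 733 and 531 (log2 difference -1.21 ± 0.15, adjusted p = 0.00146). The shares over all genes tested were 16.9% higher and 15.2% lower. Of 24 cholesterol genes 1 was higher and 4 were lower (0 and 2 without day 6, 12 or 18). Of 23 glycolysis genes 4 were higher and 2 lower (2 higher without day 18, 6 lower without day 30), among them Hk2 (log2 difference 1.17 ± 0.24, adjusted p = 0.0111) and Eno2 (log2 difference -1.18 ± 0.15, adjusted p = 0.00199).

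Secreted inflammatory proteins split by gene, with 4 higher and 4 lower of 29 (2 and 2 without day 18). The counts of 4 and 4 were near the shares over all genes tested (16.9% and 15.2%). Saa3, an acute-phase protein, read 41, 20, 13, 14 and 692 against 1758, 2768, 1275, 354 and 6875 (log2 difference -5.36 ± 0.51, adjusted p = 0.000642), lower on every day although its minus Chir value of day 30 exceeded its minus BrdU value of day 22. Lcn2, an iron-binding acute-phase protein, was higher at 2764, 3633, 4208, 4966 and 8314 against 200, 492, 674, 570 and 380 (log2 difference 3.37 ± 0.26, adjusted p = 0.000377). The growth factor of granulocytes, Csf3, read 30, 94, 258, 191 and 6 against 12, 11, 14, 4 and 1 (log2 difference 3.08 ± 0.58, adjusted p = 0.00783).

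Of 29 tested epithelial genes 3 were higher and 3 lower (median -0.60), shares below those over all genes tested (16.9% and 15.2%), and without day 6 the lower count was 10. Cdh1, the epithelial cadherin, read 24, 34, 62, 57 and 96 without Chir and 4, 72, 356, 620 and 160 without BrdU and was not called (log2 difference -1.08 ± 0.74, adjusted p = 0.295). Krt7 read 10, 28, 44, 60 and 30 against 2, 315, 1270, 2033 and 322 (log2 difference -2.97 ± 0.94, adjusted p = 0.0479; call lost without day 12, 18, 22 and 30 (adjusted p between 0.109 and 0.156)). Both were lower in the minus BrdU course on day 6 and higher there from day 12 on.

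Krt19, a keratin of simple epithelia, peaked on day 22 without BrdU, at 197, 726, 2628, 3229 and 521 against 832, 668, 814, 684 and 394 without Chir, and was not called (log2 difference -0.48 ± 0.56, adjusted p = 0.542). Pkp2, a desmosome protein, was higher without Chir on all 5 days (log2 difference 1.80 ± 0.17, adjusted p = 0.000721). Clca1, a secreted protein of mucous epithelium, was also highest on day 22 of that course, at 42, 950, 4218, 6877 and 175 without BrdU and 7, 9, 17, 12 and 4 without Chir (log2 difference -6.21 ± 0.86, adjusted p = 0.00238). Gabrp, a GABA receptor subunit of epithelia, read 4, 82, 262, 356 and 106 without BrdU and at most 2 without Chir (log2 difference -6.07 ± 0.88, adjusted p = 0.00285).

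Markers of further cell types were called higher more often than lower in the minus Chir course. Among all genes tested 16.9% were higher and 15.2% lower. Of 12 endothelial markers 5 were higher and none was lower (median 0.80; summed level 862 to 1566 against 397 to 730), yet the endothelial cadherin Cdh5 was not called (log2 difference -0.83 ± 0.42, adjusted p = 0.169). Eng, a TGF-beta coreceptor, read 573, 925, 833, 742 and 440 against 63, 70, 94, 99 and 260 (log2 difference 2.73 ± 0.39, adjusted p = 0.00269). Of 14 muscle markers 6 were higher and none was lower (summed level 489 to 687 against 73 to 254). Des, which is also in the smooth muscle list, was the largest part of it, and without day 18 only 2 were higher. Myh3 leaned lower, at 0, 0, 0, 1 and 0 against 22, 3, 1, 2 and 2, and was not called (log2 difference -1.94 ± 0.64, adjusted p = 0.0548). Actc1, Myh8 and Myl1 also leaned lower without being called (log2 difference -1.58 ± 0.68, -1.31 ± 0.60 and -0.86 ± 1.57). Myod1, the muscle master factor, read 22, 44, 150, 140 and 0 and was listed at 0 in every minus BrdU library (adjusted p = 0.0116; call lost without day 18 (adjusted p = 0.0515)).

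Of 14 neural markers 5 were higher and 1 was lower (16.9% higher among all genes tested), and without day 18 or 22 only 1 was higher (summed level 849 to 1767 against 308 to 1205). The neuronal microtubule gene Stmn2 read 1019, 726, 644, 525 and 334 against 301, 278, 202, 162 and 12 (log2 difference 2.24 ± 0.47, adjusted p = 0.0112), and Sox1, a defining marker of neural precursors, was at 0 in all 10 libraries. Of 14 cartilage and bone markers 4 were higher and none was lower, against 16.9% higher among all genes tested. Their summed level was 22633 to 26205 against 6077 to 22803, of which Spp1 is the largest part. Spp1 read 21988, the common maximum, in every minus Chir library, and 5544, 8336, 21988, 21988 and 6884 without BrdU. It was not called (adjusted p = 0.0715). The sums therefore mostly hold this gene at the maximum and cannot show a change of the other markers. Ibsp leaned lower, at 50, 100, 101, 68 and 22 against 227, 233, 253, 192 and 10, and was not called (log2 difference -1.02 ± 0.43, adjusted p = 0.105). Sox5 and Sox9 were not called either. Alpl, the alkaline phosphatase that is also high in stem cells, read 3841, 3414, 2328, 1753 and 400 against 77, 296, 356, 278 and 13 (log2 difference 3.87 ± 0.45, adjusted p = 0.00126). The part of other cell types in the gene lists was not tested.

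The remaining lists are given by their counts, beside the 16.9% higher and 15.2% lower of all genes tested. Of 31 homeobox cluster genes 7 were higher and 3 lower (1 lower without day 12, 18 or 22), with Hoxb6 at 103, 98, 84, 108 and 194 against 36, 24, 16, 11 and 44 (log2 difference 2.22 ± 0.26, adjusted p = 0.0013). Of 23 genes of DNA methylation and chromatin 2 were higher and 5 lower (0 and 3 without day 18), with the demethylating enzyme Tet1 at 9, 11, 5, 2 and 5 against 36, 20, 18, 32 and 16 (log2 difference -1.86 ± 0.41, adjusted p = 0.0139). Of 20 cAMP response genes 1 was higher and 3 were lower (6 lower without day 30), and of 20 AP-1, TEAD and RUNX genes 2 were higher and 6 lower, among them Tead2 (log2 difference -1.23 ± 0.13, adjusted p = 0.00101). Ribosomal protein genes were not analysed here.

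Of 22 tested imprinted genes 5 were higher and 4 lower in the minus Chir course, and 3 and 2 without day 18. Among all genes tested 16.9% were higher and 15.2% lower. The largest difference was in Dlk1, a membrane protein of the Notch family that marks precursor cells, at 8303, 6861, 6861, 8303 and 825 against 946, 210, 116, 99 and 1 (log2 difference 5.82 ± 0.68, adjusted p = 0.0013). The Dlk1 values fell with each day in the minus BrdU libraries, while without Chir they were lowest on day 30; the change of the difference with day was not called (adjusted p = 0.0901). Rian and Mirg, noncoding transcripts of the same imprinted region as Dlk1, were higher too (1.47 ± 0.30 and 1.80 ± 0.35, adjusted p = 0.0107 and 0.00876); without the day block Rian was not called (adjusted p = 0.057).

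The same-day libraries differed at more genes on day 30 than on day 6, with 1 library per course on each. On day 6, 4315 of the 16087 genes tested (26.8%) differed by at least 1 on the log2 scale between the same-day libraries, and on day 30 the number was 5651 (35.1%). The correlation of the same-day libraries over genes was 0.887 on day 6, 0.837 on day 22 and 0.845 on day 30, a description over genes that share the same 2 libraries. A test of whether each gene's difference changed steadily with day called no gene (0 of 16087, 0%), with a lowest adjusted p of 0.0901 and 2653 genes at an unadjusted p under 0.05.

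The genes with the smallest p in that test are given as values. The change for Dlk1 was 2.17 ± 0.17 on the log2 scale per 10 days in the minus Chir direction (adjusted p = 0.0901). Mgp, an inhibitor of mineral deposition, read 2330, 1875, 1241, 1209 and 370 without Chir and 249, 464, 833, 849 and 729 without BrdU, a change of -1.72 ± 0.15 per 10 days (adjusted p = 0.0901). Scube3 read 164, 203, 134, 107 and 30 against 38, 86, 182, 168 and 234, and its difference had opposite signs early and late. Plk3, a stress-induced kinase, read 64, 91, 188, 223 and 118 against 406, 268, 268, 292 and 46, and Mmp9, a gelatinase, 223, 378, 334, 251 and 1 against 60, 420, 782, 1136 and 15. None of these changes passed the threshold.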

How the data were processed

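Total RNA was extracted with TRIzol and made into TruSeq libraries read on a NextSeq 500, per the labels' protocols. Per the submitters' processing notes the tools were bcl2fastq, Bowtie2 and RSEM with genome build mm10; their roles and versions are not given in the sources used here. The deposited table holds 16718 genes and 26 libraries as whole-number scores; although its name speaks of CPM, their totals are not those of CPM and every library has the same distribution, so the authors' deposited scores were treated as normalised values, not counts. Read depth is unknown, so no counting interval is given.

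Columns were matched to groups by their titles, and 0 columns of values belonged to no listed sample. Genes whose 10 values averaged 1 or more were tested with limma 3.58.1 in R 4.3.3 on log2(value + 1), with course and day as terms, the variance prior following mean expression, and 4 residual degrees of freedom before moderation. A further fit added the change of the difference per 10 days. Same-day libraries were paired by the labelled day; their deviations from the course means correlated at 0.218, -0.091, 0.215, 0.162 and 0.343 on days 6 to 30. The tests were checked on simulated data.

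The comparison, the 41 gene lists and the rule for named genes were chosen with earlier results of these data known. The rule names the 12 largest called differences per direction with 1 sign on all days and a mean of at least 50, up to 3 called members per list and direction, 30 set genes and the 6 genes with the smallest p for change with day. Another 21 genes were added after their values were seen: Lgr5, Dkk2, Znrf3, Isg15, Ifit1, B2m, Prl2a1, Prl3d1, Pdgfra, Pdgfrb, Vcan, Prrx1, Col3a1, Mcm5, Cdk1, Fas, Ccng1, Id1, Id2, Krt8 and Krt19, as were the other prolactin genes and list members given in passing; a few named genes are not reported here. List counts are read against the shares of all genes tested, 16.9% higher and 15.2% lower. Promoters came from the RefSeq table (GRCm38.p6) and gene positions from GENCODE vM21 (mm10). Alternatives changed the pseudocount, the filter, the variance prior, the day block and the thresholds, and left out each day.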

Additional observations from a re-analysis of the deposited data

Results flagged for a closer look

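The differences of the 245 named genes on the 5 days were searched for a day standing far from the other 4, by the ratio of its gap to the whole range (above 0.71), and the same was done for 40 list scores. This marked 17 genes (6.94%) and 1 list; chance marks about 1 in 20 groups. All values are log2 differences, minus Chir minus minus BrdU.

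Day 6 stood apart in 6 genes. Lama1 was at -0.02 and at 1.91 to 2.17 on the other days, Gata6 at -0.05 against 0.48 to 0.54, and Incenp, a part of the chromosomal passenger complex, at 0.65 against 1.11 to 1.22. Krt7 was at 1.87 on day 6 and at -5.06 to -3.38 later. Lum was at -3.17 against -4.48 to -4.16, and the metalloprotease Mmp19 at -3.08 against -1.87 to -1.78. The mean over the imprinted list was 0.05 on day 6 and 0.66 to 0.80 later.

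Day 30 stood apart in 7 genes. Thy1 was at 3.73 and at -1.46 to -0.46 before, Stmn2 at 4.69 against 1.38 to 1.76, Trim71 at 3.78 against 2.01 to 2.25, Hk2 at 2.35 against 0.70 to 1.06 and Cdk1 at 3.45 against 0.57 to 1.13. Eng was at 0.76 against 2.89 to 3.71, and Usp17le, a 2-cell embryo gene listed at 0 in every minus BrdU library, at 1.0 against 5.21 to 5.61.

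The other days gave 4 genes. Gm26883 was at -0.87 on day 12, its only day above 0 in the minus Chir course, against -8.04 to -7.35. Tex19.1, a germline gene near 0, was at 1.0 on day 12 against 2.32 to 2.58. On day 22 Prl8a6 was at 3.52 against 6.25 to 7.12, its only day above 0 in the minus BrdU course, and Rsad2 was at 4.46 against 3.22 to 3.37. No cause was tested for any of these.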

How the results depend on the processing

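The number of called genes was 5176, with 2725 higher and 2451 lower in the minus Chir course. It stayed within 1.5 times of this with a pseudocount of 5 or 20, without the filter, with a minimum mean of 5, without the trend in the variance prior and without genes at the common maximum (4593 to 5269). With the days left out in turn it ranged from 2772 to 4783 (higher 1459 to 2538, lower 1313 to 2245); the lowest counts came without day 18 (2772) and day 22 (3141), and 2757 of those 2772 genes and 3094 of those 3141 were also called over all 5 days. A required log2 difference of at least 1 left 3040 genes (1591 higher, 1449 lower), and an adjusted p under 0.01 left 2343 (1245 higher, 1098 lower), both by construction. With no replicate block, that is without pairing by day, 4660 genes were called (2457 higher, 2203 lower), 4277 of them shared. The test of change with day called 0 genes under every alternative run. Of 245 named genes 226 were called, and 161 kept the call under all alternatives; the other 65 lost it under at least 1, most often without day 18 (42) or day 22 (32) or without the block (35). No called gene changed sign. Among genes not called, Thy1 turned to -0.0665 with a pseudocount of 20 and to -0.8707 without day 30 (highest with a day left out 0.4288). Cdkn2a turned to -0.1148 without day 30 (highest 0.2455) and Scube3 to 0.5564 without day 30 (lowest -0.6944). The sign of these 3 differs without day 30, that of Thy1 also with the larger pseudocount, and further causes were not tested. With 1 library per course and day, the precision rests on the 5 days alone.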
